A study of Mus musculus with 10 samples.

Results

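Genes that mark the activation states of tumor macrophages were followed in 10 mouse mammary tumors, with 10 members: Arg1, Nos2, Mrc1, Cd163, Retnla, Spp1, Folr2, Lyve1, Csf1r and Csf1. They were listed by name and not by a cutoff on a measured value, with earlier results of these data known. All 10 of them were in the table of 21959 genes and among the 13517 that had enough reads to be tested. Female BALB/c mice aged 5 to 6 weeks had received 4T1, an established mammary carcinoma cell line of this strain, under the skin of the abdomen. The mice of the exercise group (E, n = 5) could run on a wheel at will, and those of the non-exercise group (NE, n = 5) were kept under normal husbandry. All tumors were taken at 21 days, and mRNA was sequenced in 1 library per tumor. Both groups received the same cell line, and the labels name no engineered allele in either. Levels are given as FPKM, the reads of a gene scaled to its length and to the reads of the library, and tests were run on the read counts.

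Macrophages in tumors depend on the receptor Csf1r, which binds the growth factors Csf1 and Il34 and is carried by nearly all macrophages, so that Csf1r mRNA is used here as the measure of macrophage content. Interferon gamma and bacterial products induce Nos2, the inducible nitric oxide synthase, whereas interleukins 4 and 13 act through the transcription factor Stat6 on Arg1, Mrc1 and Retnla. Arginase 1 and Nos2 use the same amino acid, arginine, and make ornithine and nitric oxide from it. Cd163, Folr2 and Lyve1 mark resident macrophages, often found along blood vessels, while Spp1 marks macrophages of poorly perfused tumor regions and is also made by many carcinoma cells.

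Windows before the transcription start were taken from RefSeq (GRCm38.p6) for 6 of the 10 members. Of these, 5 are shown, 250 bases each and read 5′ to 3′ on the strand of the gene: Mrc1, Cd163, Retnla, Csf1 and Spp1. Over all 10 tumors Mrc1, Cd163 and Retnla had a positive Pearson's r with each other (0.864 to 0.964). Csf1 (-0.847 to -0.668) and Spp1 (-0.638 to -0.439) had a negative r with each of them. Without the 2 tumors farthest from the median of Csf1r, r with Csf1r was 0.070 for Mrc1 and 0.177 for Csf1. The windows lie at chr2:14229164-14229413 (Mrc1, forward strand), chr6:124304401-124304650 (Cd163, forward), chr16:48842359-48842608 (Retnla, forward), chr3:107760470-107760719 (Csf1, reverse) and chr5:104434861-104435110 (Spp1, forward). Capitals mark matches, on either strand, to GAGGAA (the core of the site of PU.1, the lineage factor of macrophages), TTCNNNNGAA (the site of Stat6), TTGCNNAA (C/EBP) and TGANTCA (AP-1), which were chosen after the values were seen.
Mrc1: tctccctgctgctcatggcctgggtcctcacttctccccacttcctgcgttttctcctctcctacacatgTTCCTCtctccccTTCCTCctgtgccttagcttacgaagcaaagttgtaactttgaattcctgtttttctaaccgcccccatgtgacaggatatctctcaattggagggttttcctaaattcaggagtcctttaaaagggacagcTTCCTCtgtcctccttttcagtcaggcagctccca
Cd163: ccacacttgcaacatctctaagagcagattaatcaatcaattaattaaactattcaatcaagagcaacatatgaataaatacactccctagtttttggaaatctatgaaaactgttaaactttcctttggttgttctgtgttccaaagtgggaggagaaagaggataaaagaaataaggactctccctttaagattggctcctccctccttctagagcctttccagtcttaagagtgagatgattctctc
Retnla: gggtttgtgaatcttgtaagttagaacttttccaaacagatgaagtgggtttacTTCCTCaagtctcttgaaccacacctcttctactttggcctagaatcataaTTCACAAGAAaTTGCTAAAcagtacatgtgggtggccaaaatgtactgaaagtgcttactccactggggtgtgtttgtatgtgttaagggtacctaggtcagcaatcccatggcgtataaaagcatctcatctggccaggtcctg
Csf1: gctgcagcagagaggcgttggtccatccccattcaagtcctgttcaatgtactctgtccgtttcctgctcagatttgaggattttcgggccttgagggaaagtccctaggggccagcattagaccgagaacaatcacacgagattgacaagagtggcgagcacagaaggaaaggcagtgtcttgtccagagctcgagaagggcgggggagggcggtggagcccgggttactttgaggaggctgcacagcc
Spp1: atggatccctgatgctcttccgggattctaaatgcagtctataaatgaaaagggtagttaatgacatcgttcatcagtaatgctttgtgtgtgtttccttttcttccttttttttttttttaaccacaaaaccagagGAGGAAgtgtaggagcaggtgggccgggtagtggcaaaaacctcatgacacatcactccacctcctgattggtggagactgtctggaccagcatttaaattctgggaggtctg

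The Retnla window held 1 match to the Stat6 letters, which began 145 bases before the start, and next to it 1 match to the C/EBP letters that began 134 bases before it. It also held 1 match to the PU.1 core, as did the window of Spp1, while the window of Mrc1 held 3. Not shown are a second window of Spp1, with 1 match to the C/EBP letters, and the 2 windows of Folr2, of which 1 held a match to the AP-1 letters and the other none. The windows of Cd163 and Csf1 held no match to any of the 4 motifs, and no match in the windows shown overlapped another. Among all 32851 windows of this length, 23.3% held the PU.1 core, 5.85% the Stat6 letters, 9.56% the C/EBP letters and 6.75% the AP-1 letters. A match is a match of letters and was not tested as a site.

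Between 15045613 and 20646763 reads were counted per tumor in E and between 18706032 and 23092251 in NE. The markers of macrophages were present in every tumor: Cd68 lay between 65.5 and 179 FPKM, Adgre1, which encodes F4/80, between 12.1 and 57.8 and the lysozyme gene Lyz2 between 494.5 and 1870 FPKM. Epithelial keratins were near absent, with Krt8 at 0.618 FPKM or less and Krt18 at 1.46 or less, while Krt19 lay between 4.59 and 12.55 and Cdh1 between 1.42 and 4.44 FPKM. In 3 tumors other cells stood out. By summed markers, NE1 was lowest in macrophages, neutrophils, dendritic cells, T cells, fibroblasts, lymphatic endothelium, adipocytes and muscle. It was not lowest in blood endothelium, epithelium or osteoclasts, and the single macrophage marker Cd14 was lowest in NE4 (15.65 FPKM, against 17.2 in NE1). NE4 held the most skeletal muscle (Acta1 4023 FPKM, against 1.07 to 800.3 in the other 9 tumors). E5 held the most neutrophil and fibroblast mRNA by the summed markers of each list (S100a8 101 FPKM, against 1.08 to 6.28, and Col1a2 321 FPKM, against 5.67 to 88.4). Of the neutrophil list, however, Ly6g was highest in NE3, and Camp, Ltf and Ngp in NE4 (Ngp 5.31 FPKM, against 0.163 in E5). Results were therefore also computed without NE1, NE4 and E5, a choice made after the data were seen.

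On the FPKM scale, which allows levels of different genes to be compared, the members lay far apart. Spp1, which encodes osteopontin, was highest with 1023 ± 275 FPKM (mean ± SD, n = 10), followed by Arg1 (112 ± 34.0), Csf1 (75.9 ± 12.5), Csf1r (35.8 ± 11.8), Mrc1 (26.9 ± 15.8), Retnla (18.4 ± 16.8), Nos2 (13.7 ± 5.46), Cd163 (3.91 ± 4.72), Folr2 (1.58 ± 0.591) and Lyve1 (1.39 ± 1.14). Spp1 exceeded Arg1 and Csf1 exceeded Csf1r in 10 of 10 tumors. Arg1 exceeded Csf1 in 8 tumors, Csf1r exceeded Mrc1 in 8, Mrc1 exceeded Retnla in 8 and Nos2 exceeded Cd163 in 9. Retnla exceeded Nos2 in 5 of 10 tumors, Cd163 exceeded Folr2 in 7 and Folr2 exceeded Lyve1 in 7. From Csf1r downward, the neighbors Csf1r and Mrc1, Mrc1 and Retnla, Retnla and Nos2, Cd163 and Folr2, and Folr2 and Lyve1 had means that differed by less than the larger of their SDs.

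**Figure D1:**
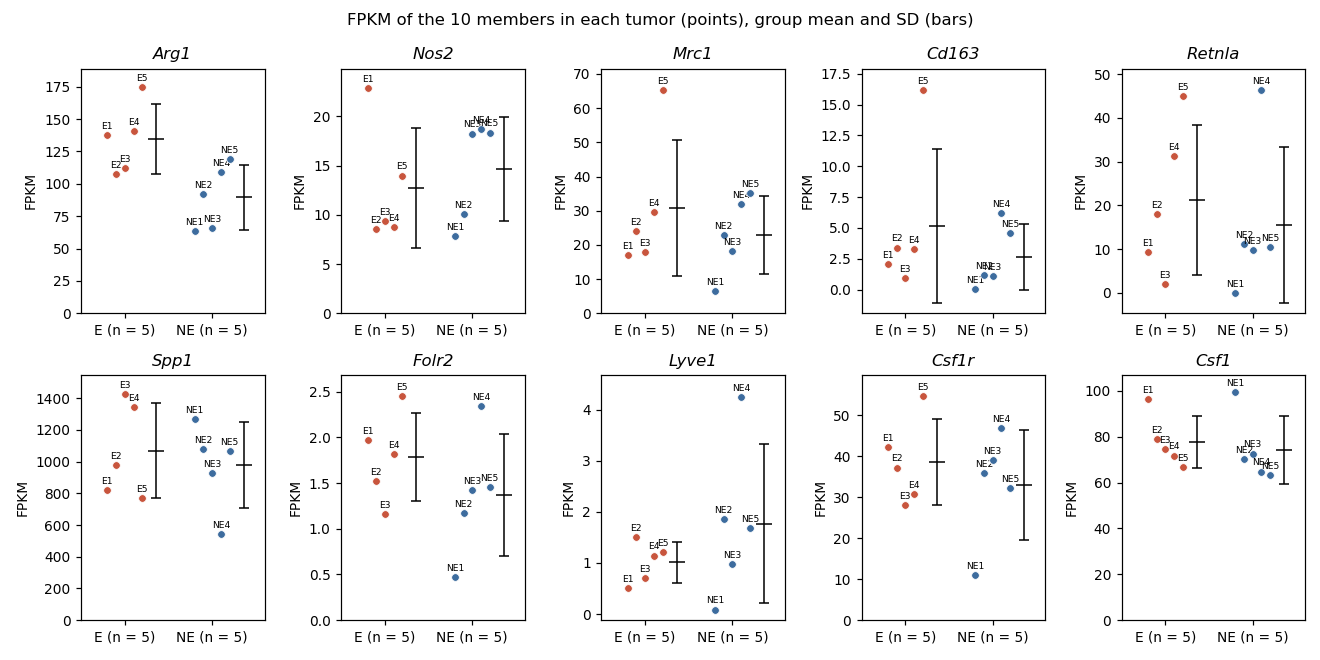
FPKM (vertical axes, linear) of the 10 members in the 5 E tumors and the 5 NE tumors. Each point is 1 tumor, labelled with its name, and the black bars give the group mean and the SD. The groups overlap for each of the 10 members, NE1 is lowest for 8 of them, and E5 stands above the other E tumors for Mrc1 (65.2 FPKM) and Cd163 (16.2 FPKM).

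Exercise was compared with normal husbandry for each gene with edgeR's quasi-likelihood test, and no member passed a fold change of at least 2 at an FDR of at most 0.05. Neither did any other of the 13517 genes (0%), with a smallest FDR of 0.897, and DESeq2 and limma called none at these thresholds either. At an unadjusted p of at most 0.05, edgeR gave 657 genes (4.86% of all tested), DESeq2 800 and limma 644. DESeq2 placed 3 genes, Ide, Rbm12b1 and Cct6a, at an FDR of at most 0.05 (smallest 0.000208), none of them a member and each below a fold of 2. Of the 10 members 1, Arg1, was at an unadjusted edgeR p of at most 0.05, with an FDR of 0.897. By the same fit 8 of 10 members had a higher estimate in E (46% of all genes). Their median log2 fold change was 0.25, against -0.01 over all genes tested. The CPM of the groups did not overlap for 98 genes (0.725%), none of them a member. In bulk RNA, fewer cells of a type and less RNA per cell cannot be told apart, which holds for each value below.

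**Figure D2:**
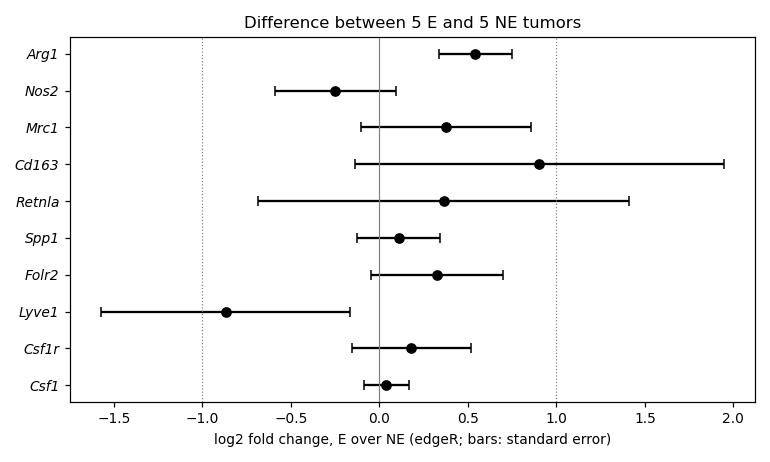
Log2 fold change of E over NE (horizontal axis) for the 10 members, as estimated by edgeR from 5 E and 5 NE tumors; bars are standard errors and the dotted lines mark a fold of 2 in either direction. The bar of Arg1 (0.54 ± 0.21) lies above 0, and the widest bars are those of Retnla and Cd163.

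The smallest unadjusted p of a member by edgeR was that of Arg1, an enzyme that uses arginine. Arg1 was at 138, 107, 112, 140.5 and 174 FPKM in E1 to E5 and at 63.2, 92.0, 65.5, 109 and 119 FPKM in NE1 to NE5. The groups overlapped, since NE4 and NE5 lay above E2, but E was higher in 22 of the 25 pairings of an E with an NE tumor. The highest tumor was E5, which also had the highest sum of neutrophil markers (342 FPKM, against 8.38 to 45.8 in the others). The part of those cells in the level of Arg1 was not tested. The mean was 134 ± 26.9 FPKM in E and 89.7 ± 25.1 FPKM in NE (SD, n = 5 each), 1.498-fold higher in E. The log2 fold change of 0.54 (SE 0.21) had an unadjusted p of 0.0252 by edgeR and an adjusted p of 0.897 over all genes tested, and an exact two-sided permutation test of log2 CPM gave p = 0.0476 (5 against 5). With Csf1r as a covariate the estimate was 0.44, while the ratio of Arg1 to Csf1r within each tumor differed by 0.27 on the log2 scale (exact permutation p = 0.444, and 0.07 to 0.52 with single tumors left out). The log2 fold change of Arg1, with no covariate, was 0.44 without E5 and 0.44 without NE3, and the unadjusted p was then 0.0668 and 0.0586 by edgeR. Without NE1, NE4 and E5 the log2 fold change of Arg1 was 0.41, with an unadjusted p of 0.0656 in edgeR's quasi-likelihood fit and an adjusted p of 0.723.

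Nos2, the other user of arginine, was lower than Arg1 in every tumor. It lay at 22.85, 8.55, 9.32, 8.73 and 14.0 FPKM in E1 to E5 and at 7.84, 10.1, 18.25, 18.7 and 18.35 FPKM in NE1 to NE5. The values fell into a low range of 7.84 to 14.0 FPKM, with 4 E tumors, NE1 and NE2, and a high range of 18.25 to 22.85 FPKM, with E1, NE3, NE4 and NE5. The log2 fold change was -0.25 (SE 0.34, adjusted p = 0.932 by edgeR), and ranged from -0.56 without E1 to -0.12 without NE4. The ratio of Nos2 to Arg1, both per length, was 0.166, 0.0799, 0.0832, 0.0622 and 0.0802 in E1 to E5 and 0.124, 0.110, 0.279, 0.172 and 0.154 in NE1 to NE5. It was lower in E by 0.56-fold in the geometric mean, higher in E in 3 of 25 pairings, with p = 0.0397 in an exact two-sided permutation test and 0.159 after adjustment over the 4 ratios between members that were tested. The unadjusted exact permutation p was 0.0556 to 0.0873 when any 1 of 8 tumors was left out and passed 0.05 only without E1 or without NE2, and it was 0.171 without NE1, NE4 and E5. With the tumors paired by replicate number it was 0.125 (exact sign-flip permutation test, smallest possible p 0.0625).

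Mrc1, Cd163 and Retnla, the receptors and the secreted protein of alternatively activated macrophages, varied more between tumors of a group than between the groups. Mrc1, the mannose receptor, was at 17.1, 24.15, 18.0, 29.7 and 65.2 FPKM in E1 to E5 and at 6.50, 22.95, 18.3, 31.9 and 35.1 FPKM in NE1 to NE5. Cd163, the scavenger receptor for hemoglobin and haptoglobin, was at 2.07, 3.41, 0.968, 3.28 and 16.2 FPKM in E and at 0.00793, 1.204, 1.11, 6.24 and 4.597 FPKM in NE. Both were highest in E5 and lowest in NE1, where Cd163 rested on 1 read (95% Wilson interval 0.0014 to 0.0449 FPKM). Retnla, a small secreted protein also called Fizz1 or RELMα, was at 9.38, 18.1, 2.025, 31.2 and 44.9 FPKM in E and at 0, 11.1, 9.845, 46.4 and 10.5 FPKM in NE. NE1 held no Retnla read, which allows up to 0.217 FPKM (3 reads of that library), so that Retnla was at least 9.34-fold lower there than in E3, the lowest of the other tumors, and at least 214-fold lower than in NE4.

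The log2 fold changes of these genes were 0.38 (SE 0.48) for Mrc1, 0.90 (SE 1.04) for Cd163 and 0.36 (SE 1.047) for Retnla, with adjusted p of 0.926, 0.914 and 0.966 by edgeR. Each turned negative without E5, to -0.09 for Mrc1, -0.18 for Cd163 and -0.11 for Retnla. By summed markers, E5 was also the tumor with the most fibroblast and neutrophil mRNA. NE4, with the highest Retnla, held the most muscle and adipocyte mRNA (Adipoq 8.11 FPKM, against 0 to 3.15 in the other tumors). The part of these cells in the levels was not tested. By the SD of log2 CPM, Cd163 ranked 83 among the 13517 genes tested, Retnla 134 and Mrc1 438.

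Folr2 and Lyve1, markers of resident macrophages, were the lowest members. Folr2, a folate receptor, was at 1.97, 1.53, 1.16, 1.81 and 2.45 FPKM in E1 to E5 and at 0.476, 1.18, 1.42, 2.34 and 1.45 FPKM in NE1 to NE5, from 17 to 83 reads per library. Lyve1, a hyaluronan receptor of lymphatic endothelium and of some resident macrophages, was at 0.514, 1.51, 0.698, 1.145 and 1.21 FPKM in E and at 0.0890, 1.87, 0.980, 4.24 and 1.68 FPKM in NE, from 6 to 284 reads. Both were lowest in NE1, while Folr2 was about as high in E5 as in NE4 and Lyve1 stood highest in NE4.

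The log2 fold change was 0.33 (SE 0.37) for Folr2 and -0.87 (SE 0.70) for Lyve1, with adjusted p of 0.912 and 0.897 by edgeR. Lyve1 was the member with the largest difference toward NE, and its unadjusted p by edgeR was 0.0277 without NE1 (log2 fold change -1.17) and 0.757 without NE4 (-0.20). Prox1, the defining factor of lymphatic endothelium, was highest in the same tumor as Lyve1 (0.265 FPKM in NE4, 0.00516 in NE1 and 0.0173 to 0.0836 in the others). It rested on 1 to 51 reads per tumor, too few to be tested. Of the other lymphatic genes, Flt4, Mmrn1 and Reln were also highest in NE4, but Pdpn was highest in E1 (46.0 FPKM) and Ccl21a in E4 (7.25 FPKM). Muscle and adipocyte markers were highest in NE4 too. The part of lymphatic vessels in the level of Lyve1 was not tested.

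Spp1, a secreted and cell-matrix protein, had its high and low tumors elsewhere than the other members. It was at 819.5, 980, 1426, 1346 and 772 FPKM in E1 to E5 and at 1269, 1077, 930, 541 and 1066 FPKM in NE1 to NE5. The lowest value was in NE4 and the highest in E3, and the third highest was in NE1, the tumor with the least Csf1r. The log2 fold change was 0.11 (SE 0.23, adjusted p = 0.951 by edgeR) and the sign turned without E3 (-0.03) or without NE4 (-0.04).

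The receptor Csf1r was at 42.3, 37.3, 28.0, 30.8 and 54.7 FPKM in E1 to E5 and at 10.9, 36.01, 39.0, 46.9 and 32.3 FPKM in NE1 to NE5. NE1 was far below the others, and NE2 to NE5 lay within the range of E. Its ligand Csf1 was at 96.5, 78.8, 74.6, 71.7 and 66.9 FPKM in E and at 99.6, 70.4, 72.6, 64.8 and 63.4 FPKM in NE, the most even of the members, with a highest over lowest tumor of 1.57-fold against 5.00-fold for Csf1r. The log2 fold changes were 0.18 (SE 0.33, adjusted p = 0.947) and 0.04 (SE 0.13, adjusted p = 0.971) by edgeR. That of Csf1r was -0.03 without NE1 and -0.06 without NE1, NE4 and E5. By these values macrophage content, as far as Csf1r measures it, was not detectably different between E and NE.

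Each member was then related to Csf1r within the same tumor, as the ratio of the reads per length, which does not depend on the size of the library. None of the 9 other members differed between E and NE at an exact two-sided permutation p of at most 0.05 (5 against 5, smallest possible p 0.00794), against 160 of 13516 genes tested (1.18%), and each adjusted p was 0.943. The median of all genes shifted by -0.31 on this log2 scale. Nos2 was lower in E by a log2 ratio of -0.57 (exact permutation p = 0.111), and by -0.76 without E1 and -0.75 without NE2 (exact permutation p = 0.0397 for each). Relative to that median the differences of the members ranged from -0.26 (Nos2) to 1.90 (Cd163). The log2 ratio of Cd163 to Csf1r itself differed by 1.59, and by 0.41 without NE1, where Cd163 had 1 read (exact permutation p = 0.325 and 0.627).

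Folr2 kept the steadiest ratio to Csf1r, from 0.0331 in NE2 to 0.0594 in E4, a 1.79-fold range, and NE1 was inside it with 0.0448. Mrc1 spanned a 2.96-fold range, Nos2 3.12-fold and Arg1 3.44-fold. Csf1 spanned 7.44-fold, Spp1 10.1-fold and Lyve1 10.3-fold, and for Csf1 and Spp1 the highest ratio was that of NE1 (9.10 for Csf1, against 1.22 to 2.66 in the other tumors, and 116 for Spp1, against 11.5 to 50.9). Cd163 and Retnla went from a ratio of 0.0286 or more to 0.00109 and from 0.0737 or more to 0.00330 in NE1. There Retnla had 0 reads, so that its ratio is set by the 0.5 reads added to each count, and Cd163 had 1 read. NE1, the tumor with the least Csf1r and thus the smallest divisor, also had the highest ratio of Arg1 (5.77) and of Nos2 (0.717) and the lowest of Lyve1 (0.00881). With Adgre1 in place of Csf1r, 1 member differed between the groups: the ratio of Folr2 was higher in E by 0.41 (log2, exact permutation p = 0.00794, the smallest possible), against 74 of 13516 genes (0.547%) at an exact permutation p of at most 0.05 and with an adjusted p of 1 over all genes, while with Cd68 or the mean of the macrophage identity genes none did.

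**Figure D3:**
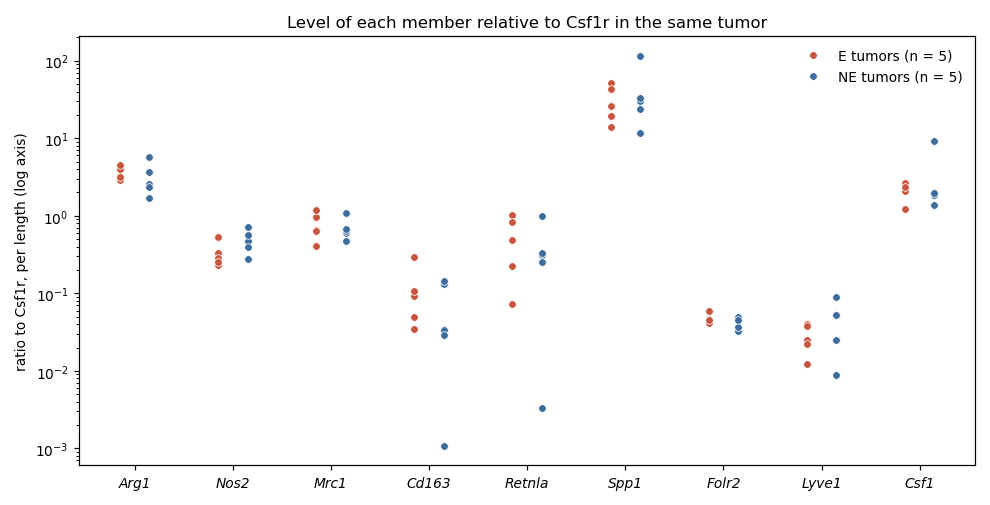
Ratio of each of 9 members to Csf1r in the same tumor, per length (vertical axis, log scale), in E and NE tumors, with 1 point per tumor. The points of Folr2 lie within a 1.79-fold range, the groups overlap for each member, and the lowest points of Cd163 and Retnla and the highest of Spp1 and Csf1 are all NE1.

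For the other 3 ratios between members no difference between the groups was detected. The ratio of Csf1 to Csf1r was 0.84-fold in E (exact two-sided permutation p = 0.825), that of Spp1 to Folr2 0.78-fold (exact p = 0.611) and that of Spp1 to Mrc1 0.81-fold (exact p = 0.698). Spp1 to Folr2 ranged from 230 in NE4 to 2589 in NE1, and Spp1 to Mrc1 from 11.8 in E5 to 195 in NE1.

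Across all 10 tumors the members sorted by how they followed Csf1r on the scale of log2(CPM + 1), tested with 100000 permutations and adjusted over 13516 genes. Folr2 followed it most closely, with r = 0.917 (permutation p = 0.001, adjusted 0.0324) and rho = 0.806 (permutation p = 0.00726, adjusted 0.106). Retnla had r = 0.830 (permutation p = 0.00244, adjusted 0.0489) and rho = 0.612 (permutation p = 0.0675, adjusted 0.285). These were the only members with a positive r at an adjusted p of at most 0.05, a level that 4.32% of all genes reached with a positive and 0.769% with a negative r. As deviations from the group means, r was 0.915 for Folr2 and 0.822 for Retnla. With 5 tumors per group, no r within a group was computed. Some macrophage markers followed Csf1r more closely than Folr2 did, such as C1qa (0.986) and Tyrobp (0.981), while Cd14 had 0.480. Markers of other cells also reached the r of Retnla or came near it: Dcn (0.869) and Col1a2 (0.825) of fibroblasts, Cd4 (0.863) of T cells and Acta1 (0.823) of muscle. Pecam1 of blood endothelium had 0.299. A high r with Csf1r was thus not particular to macrophage genes.

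The farthest tumors from the median of Csf1r were NE1 and E5. Without them, r was 0.696 for Folr2 (adjusted permutation p = 0.182) and 0.549 for Retnla (adjusted permutation p = 0.323). With single tumors left out, the adjusted permutation p of Folr2 was 0.0746 to 0.142 without E3, E5, NE1 or NE4, and that of Retnla was 0.0626 to 0.226 without any 1 of E2, E3, E5 and the 5 NE tumors. Cd163 had r = 0.853 (permutation p = 0.00348, adjusted 0.0599), rho = 0.685 (permutation p = 0.0343, adjusted 0.211) and r = 0.378 without NE1 and E5. Mrc1 had r = 0.820 (permutation p = 0.00959, adjusted 0.110), rho = 0.467 (permutation p = 0.180, adjusted 0.461) and r = 0.070 without them. Lyve1 had r = 0.717 (permutation p = 0.0348, adjusted 0.226), rho = 0.394 (permutation p = 0.264, adjusted 0.556) and r = 0.495 without them. For Arg1, r was 0.618 (permutation p = 0.0588, adjusted 0.296), rho 0.418 (permutation p = 0.231, adjusted 0.523) and r without them -0.18.

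Nos2 and Spp1 did not depend on these tumors in the same way. Nos2 had r = 0.597 (permutation p = 0.0317, adjusted 0.216), rho = 0.661 (permutation p = 0.0440, adjusted 0.237) and r = 0.655 without NE1 and E5. Spp1 went against Csf1r: r was -0.654 (permutation p = 0.0426, adjusted 0.251), rho was -0.939 (permutation p = 0.00024, adjusted 0.0279), and r without the 2 tumors was -0.981 (adjusted permutation p = 0.0315). In ranks, the tumors with more Csf1r thus had less Spp1, and NE1, whose Spp1 was below that of E3 and E4, lay off the straight line. Csf1 had r = -0.602 (permutation p = 0.0804, adjusted 0.342), rho = -0.345 (permutation p = 0.329, adjusted 0.619) and r = 0.177 without the 2 tumors.

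**Figure D4:**
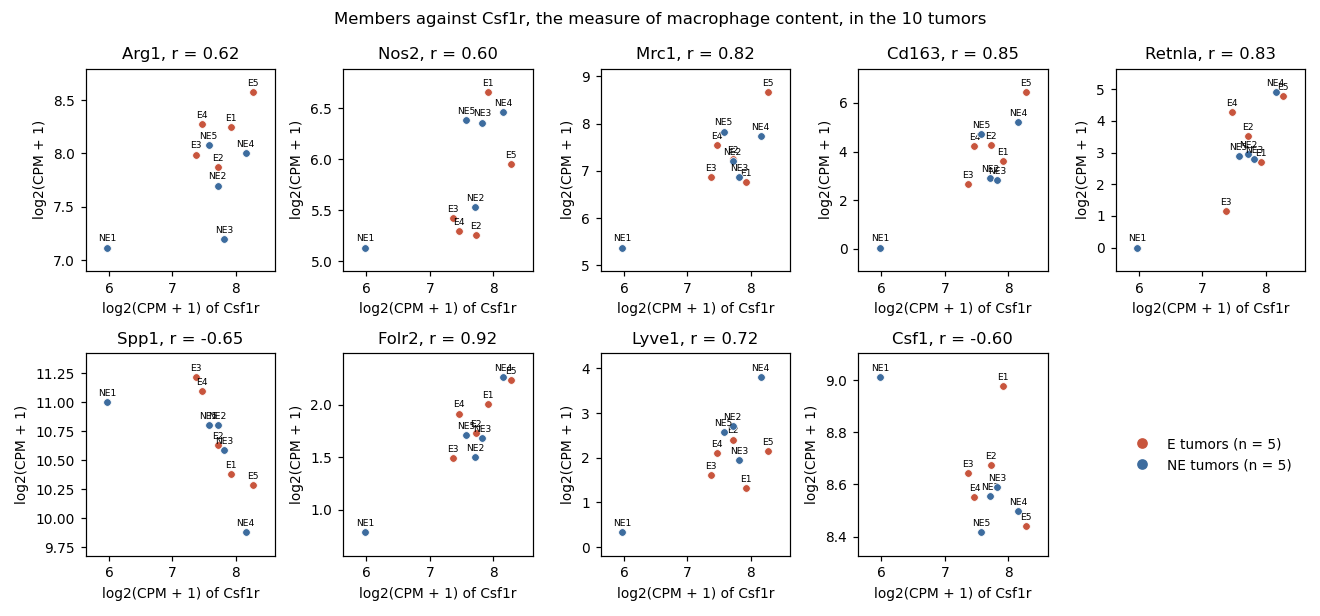
Log2(CPM + 1) of each of 9 members (vertical axes) against that of Csf1r (horizontal axes) in the 10 tumors, with 1 labelled point per tumor and Pearson's r above each panel. NE1 lies far to the left in each panel, and over the other 9 tumors Spp1 is highest in E3, the one with the least Csf1r, and lowest in NE4 and E5, those with the most.

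Among the members, Csf1r, Folr2, Cd163, Retnla, Mrc1 and Lyve1 formed a block by description, with no test. Nos2 had lower r with the genes of this block, from 0.336 with Mrc1 to 0.597 with Csf1r. Over the 10 tumors Mrc1 and Cd163 had r = 0.964, Cd163 and Folr2 0.917, Retnla and Folr2 0.905 and Retnla and Cd163 0.902. These values share the low NE1, and those with Mrc1 or Cd163 also the high E5. Arg1 went with Cd163 (0.814) and Mrc1 (0.771) more than with Nos2 (0.226). Spp1 had a negative r with each member except Csf1 (0.190), from -0.254 with Arg1 to -0.691 with Folr2.

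**Figure D5:**
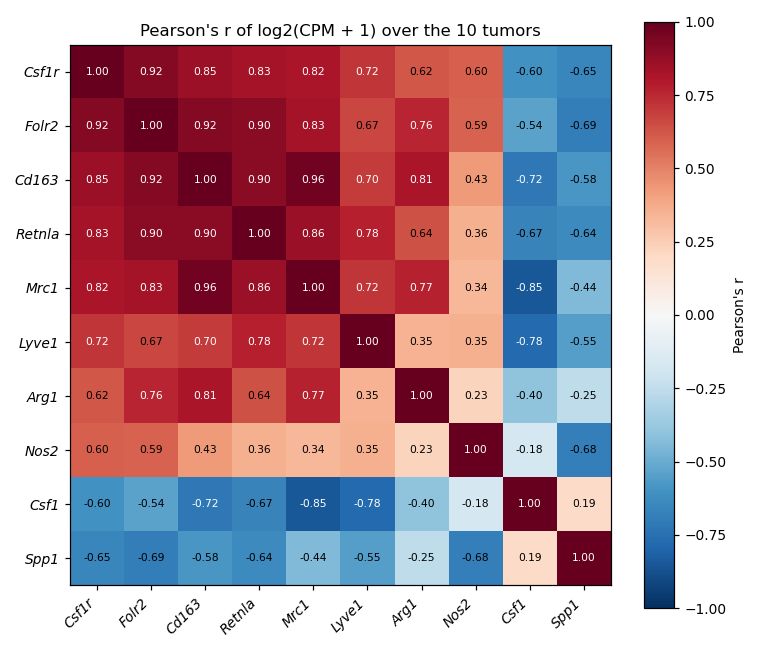
Pearson's r of log2(CPM + 1) over the 10 tumors for each pair of members, from -1 (blue) to 1 (red), with the value in each cell. Csf1r, Folr2, Cd163, Retnla, Mrc1 and Lyve1 form a red block with r from 0.669 to 0.964, and the columns of Csf1 and Spp1 are blue against it.

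The genes most like each member over the 10 tumors were named by the highest r of log2(CPM + 1). They are the highest of all genes tested, with no test, and how far single tumors set them was not examined. For Csf1r they were Myo1g (0.995), Sirpa (0.990), the receptor for the signal of Cd47, and Cfp (0.990), which encodes properdin. Folr2 was most like Ptgir (0.985), the prostacyclin receptor, Dapk1 (0.985) and Cotl1 (0.984). Mrc1 was most like Lum (0.970), Cd163 (0.964) and the cholesterol exporter Abca1 (0.962). For Cd163 they were Gpx7 (0.989), Adamts2 (0.988), which processes procollagen, and the collagen gene Col1a2 (0.983), and for Retnla Ccdc80 (0.981), Dclk1 (0.972) and Adamts5 (0.971).

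Arg1 was most like Ubtd1 (0.925), Ets2 (0.907) and Xylt1 (0.906), and Nos2 like Zbtb7b (0.913), Prdx5 (0.907) and Fyn (0.904). The closest to Spp1 were H3f3b (0.972), the thrombin receptor F2r (0.969) and Ptk2 (0.968), which encodes focal adhesion kinase. Lyve1 was most like Ptgr2 (0.976), Prex2 (0.945) and Tmem252 (0.938), and Csf1 like Elp5 (0.965), Amotl2 (0.961) and Ern1 (0.954).

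The other genes of each program were read from lists, of which no gene was called (0% of all genes tested). Over all genes tested, 46% had a higher estimate in E, and 2.57% were higher and 2.29% lower at an unadjusted edgeR p of at most 0.05. Among 17 macrophage identity genes, 14 had a higher and 3 a lower estimate in E, with a median log2 fold change of 0.12, and 1, the lipopolysaccharide co-receptor Cd14, was at an unadjusted edgeR p of at most 0.05 (0.80, SE 0.26; E 21.1 to 59.6 FPKM, NE 15.65 to 22.1 FPKM). Of 11 tested genes of the Csf and monocyte recruitment axis, 10 were higher, with a median of 0.23 and none at that p. The chemokine Ccl2 was at 111 to 166 FPKM in E and 89.3 to 132 FPKM in NE.

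Of 17 genes of alternative activation, 13 were higher in E, with a median of 0.10, and 3 were at an unadjusted edgeR p of at most 0.05: Arg1, Chil3 and Il1rn. Chil3, the chitinase-like protein Ym1, had a log2 fold change of 1.80 (SE 0.54; E 7.66 to 52.4 FPKM, NE 2.47 to 10.03 FPKM), and Il1rn, the antagonist of the interleukin 1 receptor, 0.63 (SE 0.28). For both the highest tumor was E5, which also had the highest sum of neutrophil markers, and the part of those cells was not tested. Of 14 tested genes of classical activation, 9 were higher, with a median of 0.05, and 1 was at that p, the signaling inhibitor Socs3 (0.24, SE 0.08; E 40.9 to 52.7 FPKM, NE 36.2 to 43.3 FPKM). Cxcl9, a target of interferon gamma, was at 56.5 to 122 FPKM in E and 28.1 to 182 FPKM in NE.

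Of 15 tested genes of resident perivascular macrophages, 10 were higher in E, with a median of 0.17, and 1, the platelet factor Pf4, was at an unadjusted edgeR p of at most 0.05 (0.72, SE 0.29). Of 13 genes of Spp1 and lipid-associated macrophages, 8 were higher, with a median of 0.03 and none at that p, and Lgals3 had a log2 fold change of -0.25 (SE 0.12). Of 10 hypoxia genes, 8 were lower in E, with a median of -0.16, and none was at that p.

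Of 14 genes of arginine metabolism, 7 were higher and 7 lower in E, with a median of 0.01. Arg1 was at an unadjusted edgeR p of at most 0.05 on the higher side and Sms, the spermine synthase that lies downstream of ornithine, on the lower side (-0.20, SE 0.08; E 15.4 to 19.6 FPKM, NE 18.4 to 21.8 FPKM). Odc1, which turns ornithine into putrescine, lay at 195 to 243 FPKM in E and 204 to 242 FPKM in NE. The signaling lists on either side of Arg1 and Nos2 gave no gene at that p: of 13 tested genes of interleukin 4 and 13 signaling 8 were lower in E, with a median of -0.03, and of 12 genes of interferon gamma signaling 8 were lower, with a median of -0.03.

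Markers of other cells were read the same way. All 6 tested neutrophil markers had a higher estimate in E, with a median of 1.57, and S100a9 (2.96, SE 1.26) and S100a8 (2.77, SE 1.22) were at an unadjusted edgeR p of at most 0.05. Ly6g, Camp, Ltf and Ngp, also on this list, had too few reads to be tested. The summed level of the whole list was 9.66 to 23.1 FPKM in E1 to E4, 342 in E5 and 8.38 to 45.8 in NE. All 8 fibroblast markers were higher, with a median of 0.78, and their sum was 253 to 1858 FPKM in E and 106 to 556 FPKM in NE. All 11 skeletal muscle markers were lower, with a median of -2.37, and their sum was 148 to 2023 FPKM in E and 4.85 to 13480 FPKM in NE. Neither of these lists had a gene at that p, and their part in the levels of the members was not tested.

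Of 5 tested osteoclast genes 5 were higher in E, with a median of 0.74, and 1 was at that p, the collagen protease Ctsk (1.03, SE 0.41). Of 4 tested epithelial markers 2 were lower at that p, Krt19 (-0.65, SE 0.20) and Epcam (-1.01, SE 0.39), the latter from 10 to 66 reads per tumor. The other 2, Cdh1 (0.16, SE 0.35) and Cldn7 (0.08, SE 0.35), had a higher estimate in E, and the list had a median of -0.29. Of 5 tested lymphatic genes 1 was higher at that p, Pdpn (0.49, SE 0.19), which fibroblasts express too, and the list had a median of -0.17. No gene of the dendritic cell (median -0.14 over 8 tested), blood endothelium (-0.03 over 6), adipocyte (-1.24 over 4) or T cell (-0.13 over 5) lists was at that p.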

How the data were processed

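From the total RNA of 10 tumors, 5 E and 5 NE by the labels, mRNA was sequenced. Hisat2 for alignment and Stringtie for expression are the tools that the study's methods name. The table deposited by the authors holds, per gene and tumor, a whole-number read count without normalization and an FPKM, which is that count divided by the length of the gene and the reads of the library, with no TMM factor in it. The methods name a rat assembly, while the table carries mouse Ensembl identifiers. Its build is not given in the sources used here, so that none of its coordinates were used. No columns of per-tumor values were left out.

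From the counts, edgeR 4.0.16 (R 4.3.3, TMM, filterByExpr by group, quasi-likelihood test, Benjamini-Hochberg over all 13517 genes tested) compared E with NE, and the script was tested on simulated data. Alternatives were DESeq2 1.42.0, limma 3.58.1 (trend) on log2(FPKM + 1), no TMM, other filters, a fold of 1.5, Csf1r or a muscle score as covariate, the replicate block and each tumor left out. Ratios were (count + 0.5) per length, with exact two-sided permutation tests over 252 assignments, and correlations used log2(CPM + 1), with the TMM factor, and 100000 permutations (scipy 1.17.1). SD is over tumors. Wilson intervals (95%) and the floor of 3 reads cover counting error only.

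The members, the gene lists and the tests were chosen with earlier results of these data known. Named genes were the members, up to 3 genes of each list with the smallest unadjusted p, the gene of each marker list with the highest mean FPKM, and the 3 genes most like each member. Other genes, such as Krt8, Krt18, Prox1, Odc1, Adgre1, Lyz2, Adipoq, Col1a2, Acta1, Ide, Rbm12b1 and Cct6a, were named after their values were seen. Promoter windows came from RefSeq (GRCm38.p6), matched by symbol. Gene models were those of GENCODE (GRCm38). Of the 50-base stretches of Spp1 transcripts, 11.6% also occur in a transcript of Gm42793, an overlapping gene model, and 0.0892% of those of Cd163 in transcripts of other genes, while the other 8 members shared none. The tumors are separate animals.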

Additional observations from a re-analysis of the deposited data

Results flagged for a closer look

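In groups of 5 tumors, 6 of 44 sets of values held a tumor whose distance from its nearest neighbor passed 0.71 of the range. For independent, normally distributed sets about 2.2 (1 in 20) would pass. The sets share the same tumors, and many share Csf1r as divisor, so that 2.2 is not a measure of chance here. In E, tumor E5 stood apart for Mrc1 (65.2 FPKM, next 29.7) and for Cd163 (16.2 FPKM, next 3.41). In NE, tumor NE4 stood apart for Retnla (46.4 FPKM, next 11.1) and NE1 for Csf1 (99.6 FPKM, next 72.6). Relative to Csf1r, NE1 stood apart with the lowest log2 ratio of Retnla (-8.24, next -1.98) and the highest of Csf1 (3.19, next 0.97). The ratio of Retnla in NE1 is set by the reads added to a count of 0. By summed markers, E5 was also the tumor with the most fibroblast and neutrophil mRNA and NE4 the one with the most muscle mRNA. The part of these cells in these values was not tested.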

How the results depend on the processing

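Of 621 alternative values over 37 results, 524 kept their direction and their side of the threshold, 54 fell below it, 10 passed it and 33 turned in sign, and the cause was not tested. No alternative called a gene or a member. With each tumor left out in turn, 0 to 2 members were at an unadjusted p of at most 0.05 (Arg1 was lost without E5 or NE3, and Lyve1 joined it without NE1), 0 to 1 differed relative to Csf1r (Nos2, without E1 or NE2), 0 to 1 ratio between members differed and 0 to 2 members were correlated with Csf1r. Log2 fold changes then ranged from -0.087 to 0.58 for Mrc1, -0.18 to 1.55 for Cd163, -0.11 to 1.41 for Retnla, -0.037 to 0.22 for Spp1, -0.032 to 0.37 for Csf1r -0.046 to 0.17 for Csf1 and, with no change of sign, -0.56 to -0.12 for Nos2. The log2 ratios to Csf1r ranged from -0.070 to 0.32 for Mrc1, -0.12 to 1.94 for Retnla, 0.41 to 2.17 for Cd163, -0.56 to 0.27 for Spp1 and -0.47 to 0.21 for Csf1, and those of Spp1 from -0.79 to 0.083 to Folr2 and -0.68 to 0.20 to Mrc1.

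The study speaks of matched pairs without saying what matched them, and the labels give only shared numbers. Same-numbered tumors had r of 0.0355, -0.156, -0.0949, -0.325 and 0.316 in their deviations from the group means. These r cannot tell whether the animals were matched, since matching need not show in the counts. With the replicate block, 1 member (Arg1) was at an unadjusted p of at most 0.05, 714 genes were at that p, and 0 ratios between members differed (Nos2 to Arg1, exact permutation p = 0.125, where 5 pairs cannot go below 0.0625).

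With Adgre1 in place of Csf1r, 1 member differed relative to it (Folr2), and the ratio of Spp1 turned to 0.047. The number of members correlated with Csf1r was 1 on the FPKM scale, 1 by Spearman's rho (Spp1, negative), 1 without the 2 tumors farthest from the median of Csf1r (Spp1), where r was -0.18 for Arg1 and 0.177 for Csf1, and 0 without NE1, NE4 and E5. Without these 3 tumors, 0 members were at an unadjusted p of at most 0.05 and 0 ratios differed. The log2 fold changes were then -0.21 for Mrc1 and -0.062 for Csf1r, the log2 ratios to Csf1r -0.12 for Mrc1, 0.19 for Spp1 and 0.28 for Csf1, the ratio of Spp1 to Mrc1 0.30, and r with Csf1r -0.34 for Arg1, -0.41 for Mrc1, -0.069 for Cd163, -0.13 for Lyve1 and 0.54 for Csf1. Cd163, Lyve1 and Folr2 rested on as few as 1, 6 and 17 reads in a tumor, so that counting error adds to the spread of 5 tumors per group.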
